A study of Macaca mulatta with 16 samples.

Results

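Temporal retina of rhesus monkey (Macaca mulatta) fetuses was compared at 2 gestational ages, 90 days in the second trimester and 150 days in the third, in punches taken temporal to the optic nerve head, where the fovea will form. Every gene with a level of at least 5 CPM (read counts scaled to library size) in at least 1 of the 2 temporal libraries was taken, which gave 12341 of the 28633 genes listed. Each age had 1 temporal library and 1 nasal library from the matching place nasal to the nerve head. The labels name no treatment, genotype or sex and do not say whether the punches of an age came from the same fetus. The libraries held 18778855 reads over genes at 90 days and 17429349 at 150 days, so that 5 CPM stood for 99 and 92 reads.

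The fovea is the pit of the primate retina that serves sharp, coloured vision in daylight. Retinal progenitor cells divide, leave the cell cycle and become ganglion cells, cones, horizontal and amacrine cells early, and rods, bipolar cells and Müller glia late, and the retina next to the future pit runs through this sequence ahead of the periphery. Photoreceptors then grow outer segments, the stacked membranes that hold the light-sensing proteins, and connect to bipolar cells through ribbon synapses.

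With 1 library a side there is no replicate and no test of age. A gene was therefore counted as higher or lower where log2((CPM at 150 days + 1)/(CPM at 90 days + 1)) was at least 1 in size, a change of 2-fold on that scale. Each fold below is a ratio of CPM without the added 1. Its range in parentheses is a 95% Clopper-Pearson interval from the whole reads recovered from the CPM, which covers counting error only and compares these 2 libraries, not fetuses of the 2 ages. CPM is not divided by gene length, so levels are compared between ages and not between genes. In a punch of tissue, more cells of a type and more RNA per cell cannot be told apart, and age cannot be told apart from the fetus or the library.

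Between 90 and 150 days, many genes of light detection, synapses and glia were higher in temporal retina and most listed genes of dividing cells were lower. Of the 12341 genes, 1198 (9.71%) were at least 2-fold higher at 150 days and 978 (7.92%) were at least 2-fold lower, 17.6% in all. The shares of 9.71% and 7.92% are the background for the counts of each list below. At 4-fold the counts were 413 (3.35%) and 297 (2.41%), and 59 genes were at least 16-fold higher and 61 at least 16-fold lower. Most genes differed little. The median log2 ratio over all genes was -0.06, and 8030 genes (65.1%) lay within 1.5-fold. The counting interval lay wholly beyond 2-fold for 1006 genes higher (8.15%) and 789 lower (6.39%). The genes counted as higher took 3.32% of the reads at 90 days and 12.3% at 150 days, and those counted as lower took 7.23% and 2.26%.

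**Figure D1:**
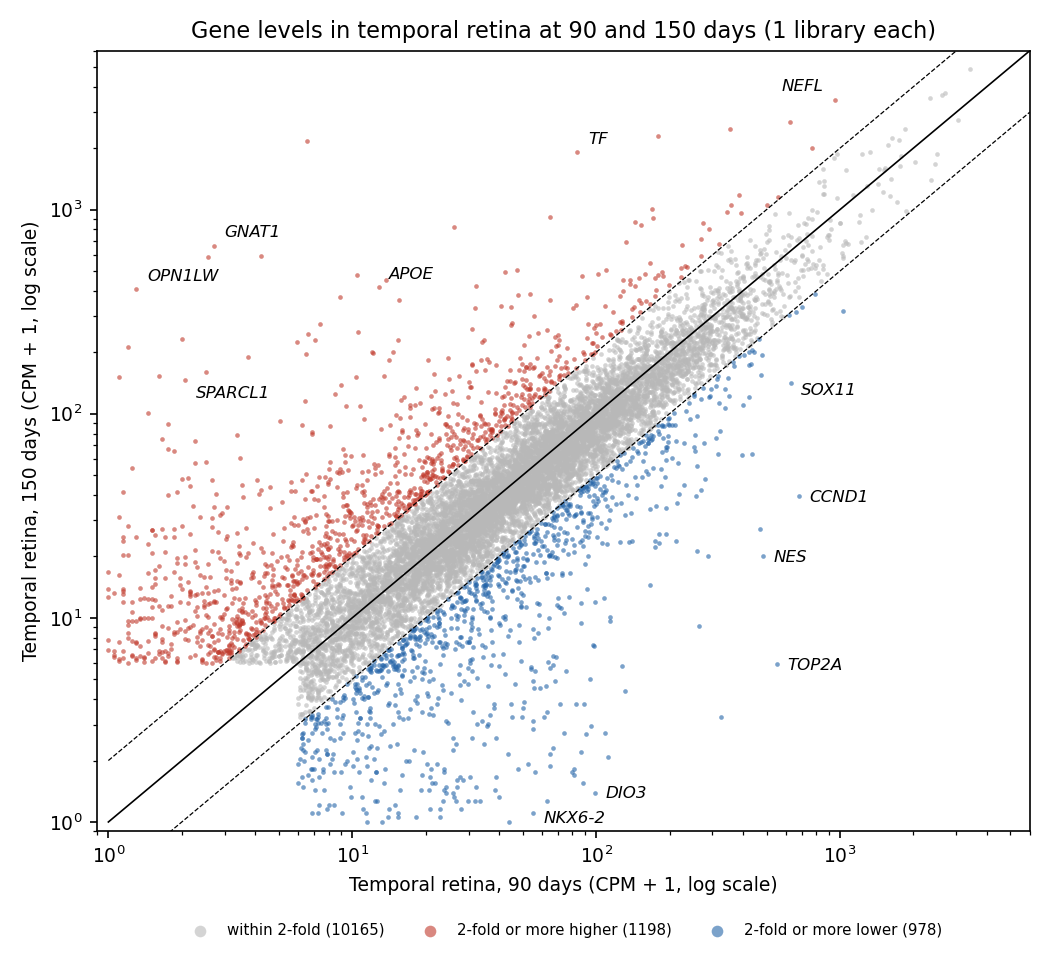
Level of each gene in temporal retina at 90 days (x axis) and 150 days (y axis), in CPM plus 1 on log scales, 1 library per age and 1 point per gene. The solid line marks equal levels and the dashed lines 2-fold. Red points are the 1198 genes at least 2-fold higher at 150 days and blue points the 978 at least 2-fold lower. GNAT1 lies far above the lines, from 1.72 to 666 CPM, and TOP2A far below them, from 550.5 to 4.95 CPM.

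Many of the genes that separate the ages pass the minimum of 5 CPM at 1 age only. Of the higher genes, 472 were at 5 CPM or more only at 150 days, and of the lower genes 356 only at 90 days. Such genes entered through the library in which they are high, so their presence among the counted genes follows from the minimum. Just inside the minimum lay KLF5, MTMR11 and ACSF2, each at 5.01 CPM at 90 days, and just outside it KATNAL2, CAPN3 and NHEJ1, each at 4.96 CPM.

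Rod genes had the highest median change of the lists. Rods are the photoreceptors of dim light, and they turn light into a signal through a G protein cascade. The rod G protein subunit transducin alpha, GNAT1, was at 1.72 CPM at 90 days and 666 CPM at 150 days, 387-fold higher (277 to 559). Cyclic GMP phosphodiesterase is the enzyme that transducin switches on. Its inhibitory subunit PDE6G was at 0.202 CPM at 90 days, which was 4 reads, and 211 CPM at 150 days. The catalytic subunits PDE6A and PDE6B were at 0.607 and 6.37 CPM at 90 days and at 152 and 273 CPM at 150 days. All 3 subunits were thus at or below 126 reads in the younger library and at 2783 reads or more in the older one. CNGA1, a subunit of the rod channel that the phosphodiesterase closes, was 45.3-fold higher (37.1 to 55.9), from 4.96 to 224 CPM. SAG, the rod arrestin, which ends the response, was 230-fold higher (148 to 376), from 1.01 to 232 CPM.

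Rod transcription factors were already present at 90 days. NRL, which commits a photoreceptor precursor to the rod fate, was at 168 CPM at 90 days and 1009 CPM at 150 days, 6.003-fold higher (5.79 to 6.23). NR2E3, which represses cone genes in rods, was at 33.1 and 224 CPM, 6.78-fold higher (6.25 to 7.38). Of the 22 rod genes listed, all with at least 5 CPM, 20 were higher and 0 lower, with a median log2 ratio of 4.54 beside -0.06 over all genes. The 2 others were GNB1, a transducin beta subunit also used outside the retina, at 970.1 and 1880 CPM, and CASZ1, a transcription factor of photoreceptors and progenitors, at 103 and 108 CPM.

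Cone genes divided into light-cascade genes that were near 0 at 90 days and others that were well measured at both ages. The opsin row OPN1LW was at 0.303 CPM, or 6 reads, at 90 days and 408 CPM at 150 days, and OPN1SW, the short-wavelength opsin, was at 0.455 and 100.01 CPM. Reads of the nearly identical long- and medium-wavelength opsin genes could have been shared, so the OPN1LW value stands for the pair. Cone arrestin, ARR3, was 374-fold higher (263 to 550), from 1.57 to 586 CPM, and the cone opsin kinase GRK7 209-fold higher (89.4 to 646), from 0.253 to 52.9 CPM. Cone phosphodiesterase and transducin differed less, since their 90-day levels were not near 0. PDE6H was at 41.2 and 491 CPM, 11.9-fold higher (11.1 to 12.8). PDE6C was at 17.3 and 132 CPM, and GNAT2 at 16.3 and 105 CPM, 7.64-fold and 6.46-fold higher.

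Factors that set cone identity differed little. THRB, the thyroid hormone receptor needed for medium-wavelength cones in mice, was at 58.2 and 69.9 CPM, and SALL3, which short-wavelength cone genes need in mice, at 26.7 and 22.7 CPM. RXRG, a receptor that restrains the short-wavelength opsin in mice, was at 244 and 251 CPM, and was chosen after its values were seen. Of 20 listed cone genes 15 were higher and 1 lower, with a median log2 ratio of 2.01. The lower gene was DIO3, the enzyme that inactivates thyroid hormone, at 98.4 CPM (1946 reads) at 90 days and 0.381 CPM (7 reads) at 150 days, 258-fold lower (125 to 643). The receptor was thus near level while the enzyme that removes its hormone was close to 0 in the older library.

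Genes used by both photoreceptor types were higher as well, with a summed level of 3431 CPM at 90 days and 16657 CPM at 150 days. RBP3, the retinoid carrier between photoreceptors and pigment epithelium, was at 353 and 2484 CPM, 7.04-fold higher (6.86 to 7.22). RP1, a microtubule protein of the outer segment, was at 179 and 2302 CPM, 12.9-fold higher (12.4 to 13.3). ABCA4, the transporter that clears retinal from the outer segment, was at 63.4 and 921 CPM. PRPH2, which shapes the rim of outer segment discs, was 35.5-fold higher (31.3 to 40.4), from 12.7 to 451 CPM, and IMPG1, a proteoglycan of the matrix around outer segments, was 50.7-fold higher (43.8 to 58.9), from 9.46 to 479 CPM. Of the 41 shared photoreceptor genes listed, 34 were higher and 0 lower. CRX, the factor that drives photoreceptor genes, was 5.27-fold higher (5.05 to 5.50), from 131 to 692 CPM. OTX2, which acts upstream of CRX and also in bipolar cells, was at 300.3 and 207 CPM, and CRB1, a polarity protein of photoreceptors and Müller glia, at 336 and 210 CPM.

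**Figure D2:**
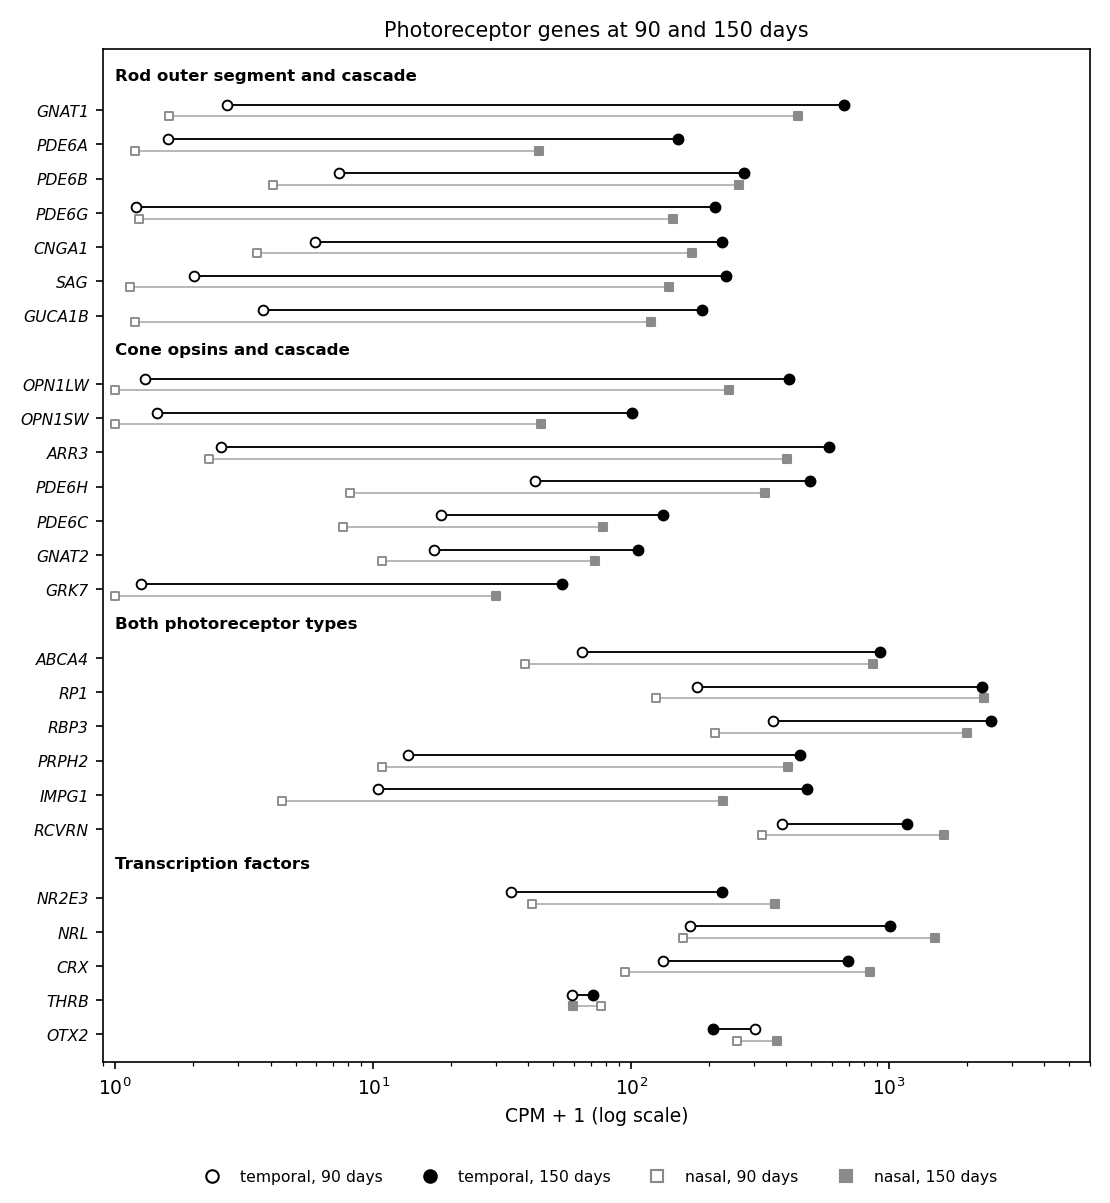
Levels of photoreceptor genes in CPM plus 1 on a log scale, 1 library per age and region. Circles are temporal and squares nasal retina, open at 90 days and filled at 150 days, and a line joins the 2 ages of a region. Cascade genes such as GNAT1 and ARR3 start near the left edge in both regions at 90 days, whereas NRL, CRX and RBP3 start above 90 CPM and THRB and OTX2 stay within 2-fold in both.

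Nasal retina, measured in other libraries, had most of the same photoreceptor differences. GNAT1 was at 0.611 CPM at 90 days and 444 CPM at 150 days in nasal retina, and ARR3 at 1.32 and 399 CPM. The median log2 ratio of the rod list was 4.36 in nasal and 4.54 in temporal retina, and that of the cone list 2.57 and 2.01. For cone phosphodiesterase the 90-day temporal library was further above the nasal one than the 150-day library was. PDE6H was at 41.2 CPM in temporal and 7.10 CPM in nasal retina at 90 days, and at 491 and 330.3 CPM at 150 days. Whether the regions differ in their change cannot be tested with 1 library per region and age.

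Synaptic genes were higher by smaller folds from higher starting levels. Among the genes counted as higher with the largest CPM were SNAP25 and SYT1, parts of the vesicle fusion machinery. SNAP25 was at 358 and 1057 CPM, 2.95-fold higher (2.87 to 3.03), and SYT1 at 556 and 1146 CPM, 2.06-fold higher (2.02 to 2.11). Genes particular to the photoreceptor ribbon synapse differed more. CABP4, a calcium sensor of that synapse, was at 0.657 CPM, or 13 reads, at 90 days and 74.5 CPM at 150 days, 113-fold higher (66.0 to 213). CPLX4, the complexin of ribbon synapses, was 17.1-fold higher (14.6 to 20.2), from 7.99 to 137 CPM, and the calcium channel CACNA1F 6.82-fold higher (6.29 to 7.42), from 33.6 to 229 CPM. Of 43 genes listed for the ribbon synapse and synaptic vesicles 24 were higher and 0 lower, with a median log2 ratio of 1.04. The scaffold proteins varied: PCLO was at 139 and 297 CPM, CTBP2, whose long form builds the ribbon, at 332 and 385 CPM, and BSN at 129 and 108 CPM.

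Bipolar cells carry signals from photoreceptors to ganglion cells, and their genes were mixed. CABP5, a calcium-binding protein of rod bipolar and some cone bipolar cells in mice, was at 1.11 CPM at 90 days and 47.6 CPM at 150 days, 42.8-fold higher (28.1 to 68.7). TRPM1, the channel of ON bipolar cells, was at 20.1 and 121 CPM, 6.02-fold higher (5.41 to 6.72). GRM6, the glutamate receptor that closes that channel, was at 51.2 and 95.5 CPM, 1.87-fold higher (1.73 to 2.02), and PRKCA, a rod bipolar marker, at 54.7 and 87.6 CPM. VSX1, a factor of cone bipolar cells, was at 48.6 and 97.5 CPM, with a log2 ratio of 0.99 just under the threshold. ISL1, used in ON bipolar, ganglion and other cells, was at 85.8 and 85.6 CPM. Of 38 listed bipolar genes 15 were higher and 2 lower, both of the lower ones transcription factors, BHLHE22 at 46.6 and 17.1 CPM and FEZF2 at 91.2 and 40.7 CPM. The receptor and channel of the ON pathway were thus present in the temporal punch at 90 days, below their later level.

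VSX1 and TRPM1 stood at lower levels in the nasal than in the temporal library at 90 days and at similar levels at 150 days. VSX1 was at 1.22 CPM in nasal retina at 90 days and 101 CPM at 150 days. TRPM1 was at 3.06 and 117 CPM. Some other listed bipolar genes did not share this pattern. In nasal retina FEZF2 was at 103 and 46.1 CPM, BHLHE22 at 47.1 and 27.0 CPM and PRKCA at 50.7 and 65.6 CPM. A few other genes, chosen after their values were seen, followed the pattern of VSX1 and TRPM1. TMEM215, which the paper counts among bipolar markers, was at 52.5 and 139 CPM in temporal and at 5.08 and 122 CPM in nasal retina. GPR179, a scaffold of the ON bipolar cascade, was at 47.4 and 163 CPM in temporal and at 4.80 and 157 CPM in nasal retina. NETO1, an auxiliary subunit of kainate receptors, was at 27.6 and 82.5 CPM in temporal and at 1.41 and 66.4 CPM in nasal retina. The log2 ratios of VSX1, TRPM1, TMEM215, GPR179 and NETO1 ran from 0.99 to 2.53 in temporal and from 4.34 to 5.52 in nasal retina. The bipolar list as a whole had a median log2 ratio of 0.79 in temporal and 1.34 in nasal retina. It had 15 higher and 2 lower genes in temporal retina and 22 higher and 1 lower in nasal retina.

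Horizontal and amacrine cells modulate the paths through bipolar cells. CALB1, a calcium-binding protein of horizontal cells and some cones and bipolar cells in primates, was at 31.2 and 420.0 CPM, 13.5-fold higher (12.4 to 14.6). PVALB, a marker of primate horizontal cells, was at 17.1 and 109 CPM, and NDNF at 29.9 and 172 CPM. Among factors of horizontal cells, ONECUT1 was at 51.8 and 54.7 CPM, LHX1 at 15.5 and 18.6 CPM, PROX1 at 67.6 and 91.5 CPM and ONECUT2 at 5.56 and 3.10 CPM, all within 2-fold. FOXN4, which acts earlier, in progenitors, was lower, at 87.0 and 0.544 CPM. Of 16 horizontal genes with at least 5 CPM 7 were higher and 0 lower.

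Amacrine genes went both ways. Of 29 measured, 9 were higher and 6 lower, with a median log2 ratio of 0.09. CALB2 was at 5.21 and 86.7 CPM, 16.6-fold higher (13.6 to 20.5). SLC6A9, the glycine transporter of amacrine cells, was at 44.8 and 109 CPM. GAD2, which makes GABA, was at 51.0 and 33.1 CPM, and the amacrine factors TFAP2A and TFAP2B at 121 and 86.7 CPM and at 113 and 96.1 CPM. Among the lower genes were TAC1, a neuropeptide precursor, at 55.7 and 17.9 CPM, and SLC18A2, the vesicular monoamine transporter, at 15.1 and 4.25 CPM.

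Ganglion cells send their axons through the optic nerve, and their genes went both ways. The neurofilament genes NEFL, NEFM and NEFH build the core of large axons. NEFL was at 957 and 3452 CPM, 3.61-fold higher (3.55 to 3.67), NEFM at 625 and 2679 CPM, 4.29-fold higher (4.20 to 4.37), and NEFH at 6.07 and 229.5 CPM, 37.8-fold higher (31.5 to 45.7). INA, a further neurofilament gene, was at 1754 and 1627 CPM, and at 1538 and 986 CPM in nasal retina. NEFL and NEFM were among the 10 higher genes of greatest CPM. THY1 was at 128 and 397 CPM, SNCG at 221 and 519 CPM, and SCN1A, a sodium channel, at 30.5 and 88.8 CPM. The ganglion cell factors POU4F1 and RBPMS were within 2-fold, at 32.3 and 23.4 CPM and at 159 and 143 CPM. ATOH7, the factor that makes ganglion cells from progenitors, was at 13.96 CPM (276 reads) and 0.218 CPM (4 reads), and ISL2 at 34.3 and 14.3 CPM. Of 40 ganglion cell genes 11 were higher and 3 lower, and the median log2 ratio was -0.05. In nasal retina the list had 4 higher, 12 lower and a median of -0.57. NEFL was at 655 and 1278 CPM there, and NEFM at 384 and 936 CPM.

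Müller glia span the retina and support its neurons, and part of their defining genes were higher. APOE, a lipid carrier, was at 11.8 and 416 CPM, 35.1-fold higher (30.9 to 40.2). FRZB, a secreted inhibitor of Wnt signals, was at 25.03 and 816 CPM, 32.6-fold higher (29.8 to 35.7). TF, transferrin, the iron carrier, was at 82.9 and 1913 CPM, 23.1-fold higher (21.96 to 24.3), and was among the most abundant of the higher genes. RLBP1, which carries retinaldehyde in the visual cycle, was at 52.7 and 386 CPM, 7.33-fold higher (6.86 to 7.83). SLC1A3 and GLUL, which take up glutamate and turn it into glutamine, were at 128 and 451 CPM and at 223 and 666 CPM. The water channel AQP4 was at 0.152 CPM (3 reads) and 0.381 CPM (7 reads), below the minimum at both ages. Of 36 measured Müller glia genes 18 were higher and 2 lower, with a median log2 ratio of 0.95. The lower genes, SOX8 at 14.9 and 3.27 CPM and WEE1 at 40.7 and 9.15 CPM, are also expressed by progenitors. VIM and SOX9, which glia and progenitors share, were at 1027 and 666 CPM and at 371 and 191 CPM.

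Genes of the cell cycle were lower almost throughout. Of 51 listed genes, all with at least 5 CPM, 49 were lower and 42 of these at least 4-fold lower, with a median log2 ratio of -3.46. The summed level of the list was 4878 CPM at 90 days and 577 CPM at 150 days. TOP2A, the topoisomerase that untangles DNA before mitosis, was at 550.5 CPM at 90 days and 4.95 CPM at 150 days, 111-fold lower (90.4 to 138). CCND1, the cyclin that drives progenitors into S phase, was at 676 and 38.7 CPM, 17.5-fold lower (16.2 to 18.9). CDK1 and CCNB1, the kinase and cyclin of mitosis, were at 81.6 and 2.78 CPM and at 68.0 and 10.6 CPM. Replication genes kept more reads. PCNA, the sliding clamp of DNA polymerase, was at 211 and 72.6 CPM, 2.91-fold lower (2.74 to 3.10), and MCM2 and MCM4, parts of the replicative helicase, were 4.22-fold and 2.18-fold lower. The 2 listed genes within 2-fold were CCNE1 at 12.9 and 13.5 CPM and CDC25A at 27.2 and 20.9 CPM. Among the 20 largest decreases were the regulators of mitosis BUB1, CDC20, KIF11, ASPM and FOXM1, which were at 55.0 to 110.5 CPM at 90 days and at 0.762 to 1.96 CPM at 150 days.

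Notch signals between neighbouring cells keep some of them as progenitors while others become neurons. The receptors NOTCH1 and NOTCH3 were at 397 and 61.5 CPM, 6.46-fold lower (6.07 to 6.88), and at 84.5 and 22.5 CPM, 3.75-fold lower (3.37 to 4.19). The ligands differed among themselves: DLL3 was at 65.5 and 1.31 CPM, 50.2-fold lower (33.6 to 78.6), DLL1 at 49.5 and 2.89 CPM, 17.2-fold lower (13.0 to 23.1), JAG2 at 33.0 and 38.4 CPM, and JAG1 at 5.41 and 28.7 CPM, 5.30-fold higher (4.30 to 6.59). HES5, the target that represses neurogenic genes, was at 113 and 8.66 CPM, 13.0-fold lower (11.1 to 15.4). RBPJ, the DNA-binding partner of all Notch receptors, was at 127 and 52.4 CPM, and its coactivator MAML2 at 29.8 and 46.0 CPM. Of 25 listed genes 11 were lower and 1, JAG1, higher. DLL1, DLL3, NOTCH1, NOTCH3 and HES5 were thus lower at 150 days, and JAG1 and JAG2 were not.

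Most progenitor factors were lower, and neurogenic factors were lower or within 2-fold. NES, an intermediate filament of progenitors, was at 483 and 19.1 CPM, 25.3-fold lower (22.7 to 28.2). SOX2 and LHX2, which keep progenitors, were at 195 and 67.7 CPM and at 152 and 71.5 CPM. SFRP2, a secreted modulator of Wnt signals, was at 134 and 39.0 CPM. PAX6, which stays on in amacrine cells, was at 676 and 371 CPM. Of 27 measured progenitor genes 17 were lower and 0 higher. Among neurogenic factors, FOXN4, which gives progenitors the competence to make amacrine and horizontal cells in mice, was at 87.0 and 0.544 CPM, 160-fold lower (86.7 to 334). OLIG2 was at 38.9 CPM (770 reads) and 0.327 CPM (6 reads), and NEUROG2 at 20.5 and 4.03 CPM. NKX6-2 was at 54.2 CPM (1072 reads) and 0.109 CPM (2 reads). NEUROD1, which stays on in photoreceptors, was at 353 and 333 CPM. SOX11 and DCX, genes of newborn neurons, were at 626 and 141 CPM and at 175 and 34.1 CPM. Of 35 neurogenic and newborn-neuron genes 15 were lower and 0 higher, and the cytoskeletal genes STMN2, CRMP1 and DPYSL3 were at 1504 and 1222, 1352 and 991, and 1444 and 1578 CPM.

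**Figure D3:**
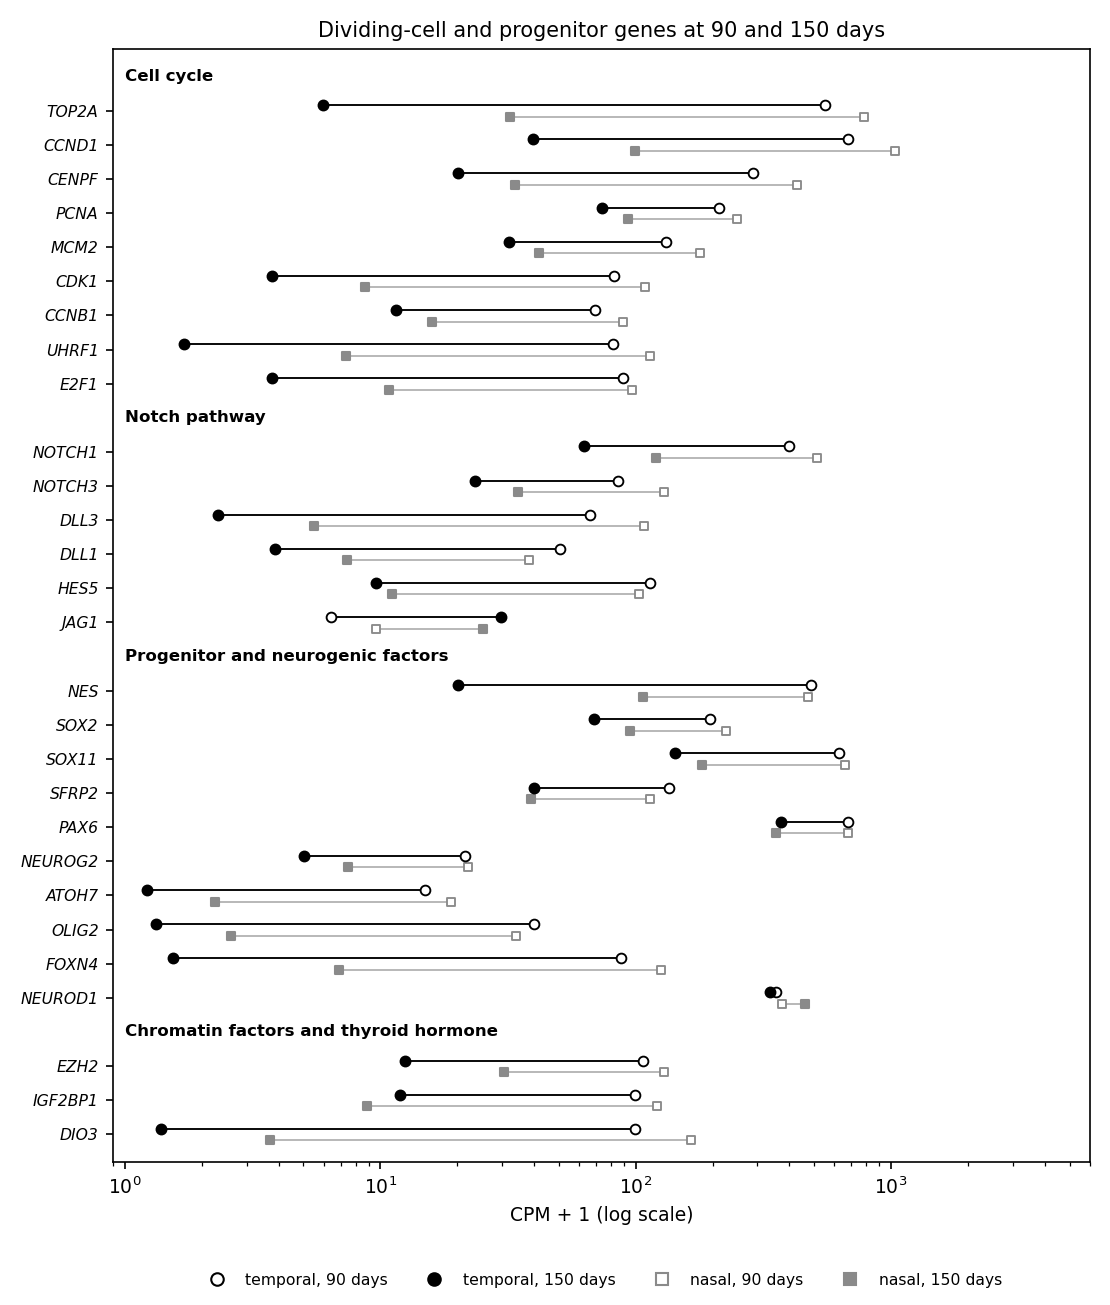
Levels of genes of dividing cells, Notch signalling, progenitors and neurogenesis in CPM plus 1 on a log scale, with the same symbols for region and age as for photoreceptor genes. Filled symbols lie to the left of open ones for nearly all genes in both regions, with JAG1 in both regions, and NEUROD1 in nasal retina, as exceptions. For TOP2A the temporal 150-day library reads 4.95 CPM and the nasal one 31.1 CPM.

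Chromatin factors and RNA-binding proteins of early development were lower or within 2-fold. EZH2, the methyltransferase that writes the repressive histone mark of Polycomb, was at 106 and 11.5 CPM, 9.20-fold lower (7.99 to 10.7). IGF2BP1, an RNA-binding protein of embryonic cells, was at 98.1 and 10.9 CPM, 8.97-fold lower (7.75 to 10.4), and SMARCC1, a subunit of the BAF remodelling complex, at 399 and 109 CPM. UHRF1, which maintains DNA methylation at replication, was at 80.5 and 0.708 CPM and is also on the cell cycle list. Of 28 measured genes 13 were lower and 0 higher. The linker histone gene H1F0 was at 477 and 194 CPM, 2.46-fold lower (2.37 to 2.56).

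At 150 days the cell cycle list summed to more CPM in the nasal than in the temporal library, though not every gene was higher there. TOP2A was at 785 and 31.1 CPM in nasal retina, CCND1 at 1039 and 98.8 CPM and CDK1 at 108 and 7.68 CPM. The progenitor filament NES was at 473 and 106 CPM. MCM4, CDC25A and CCNE1 went the other way. At 150 days they were at 73.4, 16.7 and 9.53 CPM in nasal and at 81.6, 20.9 and 13.5 CPM in temporal retina. The cell cycle list had a median log2 ratio of -3.30 and 49 lower genes there, as many as in temporal retina, and a summed level of 6725 CPM at 90 days and 868 CPM at 150 days. Both regions therefore had the same direction, and the nasal sum was above the temporal one at both ages.

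Receptors for neurotransmitters were mostly higher or level. Of 42 measured genes 20 were higher and 1 lower. GLRA1 and GLRA3, glycine receptor subunits, were at 0.809 and 11.8 CPM and at 2.93 and 22.2 CPM, 14.6-fold (8.79 to 26.0) and 7.56-fold (5.73 to 10.1) higher. Among the NMDA receptor subunits GRIN2C was at 8.04 and 50.7 CPM and GRIN2D, the subunit of immature neurons in the rodent brain, at 12.1 and 5.34 CPM. The AMPA receptor subunit GRIA2 was at 117 and 122 CPM. The list had a median log2 ratio of 0.93, beside -0.06 over all genes. Of its measured genes 32 lay above their 90-day level and 10 below it, by any amount.

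Ion channels and transporters that set excitability had 19 higher and 0 lower genes of 42. KCNV2, a potassium channel subunit of photoreceptors, was at 30.8 and 329.6 CPM, 10.7-fold higher (9.84 to 11.7). SLC12A5, the chloride extruder that makes GABA inhibitory in mature neurons, was at 43.9 and 269.8 CPM, 6.15-fold higher (5.72 to 6.61). SCN3A, a sodium channel of fetal neurons, was below its earlier level within 2-fold, at 195 and 128 CPM.

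Retinoid genes divided by function. Retinol dehydrogenases of photoreceptors, which reduce the retinal released by bleached opsin, were higher. RDH8 was at 0.758 and 39.1 CPM, 51.5-fold higher (31.0 to 92.6), and RDH12 at 14.4 and 228 CPM, 15.9-fold higher (14.1 to 17.9). Enzymes of retinoic acid signalling did not share that direction. ALDH1A1, which makes retinoic acid in the dorsal retina of mice and chicks, was at 55.3 and 4.52 CPM, 12.2-fold lower (9.79 to 15.5). CYP26A1, which degrades retinoic acid in the developing macula, was at 28.7 and 31.5 CPM, a ratio of 1.10 (0.978 to 1.24). In nasal retina ALDH1A1 was at 268 and 7.93 CPM and CYP26A1 at 1.60 and 11.4 CPM. Of the 25 measured genes of the visual cycle and of retinoic acid, 10 were higher and 2 lower.

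Axon guidance and patterning genes were lower more often than higher, 12 (31.6%) against 4 (10.5%) of 38. Over all genes 7.92% were lower and 9.71% higher, so the higher share of the list was near that of all genes. EFNB1, EFNA2 and EFNA5, ephrins that guide ganglion cell axons by position, were at 92.1 and 25.4 CPM, 23.4 and 6.48 CPM and 15.0 and 6.15 CPM. HMX1, a nasal factor of the mouse retina, was at 102 and 41.9 CPM, 2.44-fold lower (2.24 to 2.65). The receptors EPHA3 and EPHA6 were at 39.7 and 32.0 CPM and at 7.69 and 6.75 CPM. NTN4, a netrin found in basement membranes, was at 38.0 and 172 CPM, 4.52-fold higher (4.17 to 4.90). In the temporal libraries Eph receptors parted by class, and all 6 of the A class listed were within 2-fold. All 3 of the B class listed were lower, EPHB1 at 116 and 46.6 CPM, EPHB2 at 153 and 47.8 CPM and EPHB3 at 30.04 and 8.87 CPM. EPHB1 and EPHB2 were chosen after their values were seen. The A class was not all within 2-fold in nasal retina, where EPHA5 was lower, at 326 and 122 CPM, beside 408 and 291 CPM in temporal retina.

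Factors that shape the vessel-free zone around the fovea were measured as a list of 19 genes, of which 9 were higher and 3 lower. VEGFA, the main vascular growth factor, was at 98.3 and 199 CPM, 2.03-fold higher (1.92 to 2.14), near the threshold. SERPINF1, a secreted inhibitor of vessel growth, was at 15.0 and 82.6 CPM, 5.50-fold higher (4.85 to 6.25). EPAS1, a hypoxia-inducible factor of endothelium and glia, was at 13.8 and 199 CPM, 14.4-fold higher (12.8 to 16.4), and HIF1A at 609 and 438 CPM. These genes had the same direction in nasal retina. VEGFA was at 99.9 and 178 CPM there, SERPINF1 at 6.82 and 68.9 CPM, EPAS1 at 40.4 and 212 CPM and HIF1A at 597 and 455 CPM. Of the list, 5 genes were higher and 1 lower in nasal retina. Basement membrane collagens parted. COL4A3 was at 0.202 CPM (4 reads) and 27.3 CPM (502 reads), 135-fold higher (52.4 to 498), and COL4A4 at 0.303 and 23.9 CPM, 78.8-fold higher (35.9 to 216). COL4A2, of the collagen IV network that most basement membranes share, was at 431 and 174 CPM, 2.47-fold lower (2.37 to 2.58). COL4A3 and COL4A4 were at 3.14 and 3.49 CPM in the nasal 150-day library. NPVF, a neuropeptide precursor of the human fetal macula, was at 39.6 and 338 CPM, 8.53-fold higher (7.92 to 9.20), and in nasal retina at 0.0941 CPM (2 reads) and 55.4 CPM.

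Astrocytes enter the retina from the optic nerve head during development and vessels follow them. Markers of both were near 0 in the temporal library at 90 days. CLDN5, the tight-junction protein of endothelium, was at 0.758 CPM (15 reads) and 88.1 CPM (1618 reads), 116-fold higher (70.2 to 208). CDH5 and PECAM1, which join endothelial cells, were at 0.556 and 24.5 CPM and at 1.21 and 34.4 CPM. GFAP and PAX2, markers of astrocytes and optic nerve glia, were at 0.152 CPM (3 reads) and 19.4 CPM and at 0.101 CPM (2 reads) and 6.59 CPM. RGS5, a pericyte marker, was at 1.52 and 57.2 CPM. SPARCL1, a secreted matrix protein of vessels, astrocytes and Müller glia, was at 1.06 CPM (21 reads) and 146 CPM (2678 reads), 137-fold higher (89.6 to 222).

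The nasal library at 90 days already held those transcripts. SPARCL1 was at 85.0 and 131 CPM there, GFAP at 15.5 and 15.3 CPM, PAX2 at 5.97 and 5.99 CPM and PECAM1 at 16.7 and 41.7 CPM. At 150 days the regions had similar values, with CLDN5 at 88.1 CPM in temporal and 85.4 CPM in nasal retina. KDR, which retinal neurons and progenitors also express in mice, and the pericyte receptor PDGFRB differed less, at 628 and 563 CPM and at 26.3 and 34.4 CPM in temporal retina. DES and ACTA2, muscle filament genes, were at 34.7 and 1.96 CPM and at 27.1 and 7.08 CPM. Of 22 measured endothelial and mural genes 13 were higher and 4 lower, while the summed level of the list was 1406 CPM at 90 days and 1383 CPM at 150 days, and KDR and COL4A2 gave 628 and 431 CPM of it at 90 days. Of 11 measured astrocyte and optic nerve genes 5 were higher and 2 lower. Myelin genes of the list, CNP and CLDN11, were at 185 and 119 CPM and at 16.9 and 1.252 CPM.

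**Figure D4:**
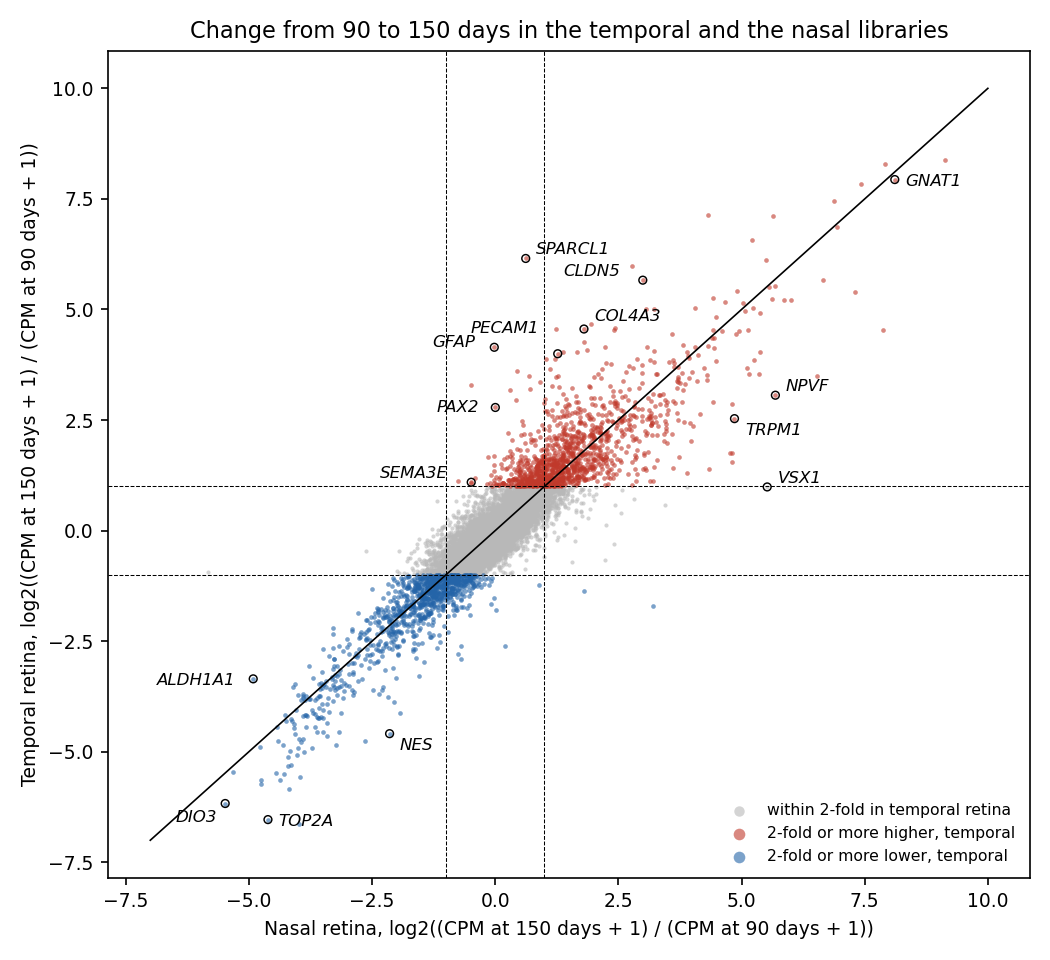
Change from 90 to 150 days in nasal (x axis) and temporal (y axis) retina, as log2((CPM at 150 days + 1)/(CPM at 90 days + 1)), for the 12341 genes. The solid line marks equal change and dashed lines 2-fold. Most points lie along the line. SPARCL1, at 6.15 in temporal and 0.62 in nasal retina, and GFAP lie above it, and VSX1, at 0.99 and 5.52, lies below it.

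Set side by side, the regions had mostly the same genes past 2-fold. Of the 1198 genes higher in temporal retina 822 were also higher in nasal retina (68.6% of the temporal and 72.8% of the 1129 nasal ones), and of the 978 lower genes 740 were also lower (75.7% of the temporal and 70.4% of the 1051 nasal ones). In nasal retina 9.16% of 12327 genes were higher and 8.53% lower. The 2 regions share no library, but their libraries of an age could come from 1 fetus. When the 4 libraries at 90 and 150 days were fitted together by edgeR's quasi-likelihood test with age and region as terms and Benjamini-Hochberg adjustment, 1126 of the 1198 higher and 957 of the 978 lower genes had an adjusted p under 0.05, beside 19.5% of all 12341 genes in the higher and 19.1% in the lower direction. That fit treats the regions as repeats of the ages and has 1 residual degree of freedom. Its data include the 2 temporal libraries from which the higher and lower genes were counted. The overlap is therefore partly built in and is no separate support for an effect of age. SPARCL1 (adjusted p = 0.141), GFAP (0.239), PAX2 (0.236) and SOX4 (0.102) were among the counted genes that did not reach an adjusted p under 0.05 in edgeR's fit. SOX4, a factor of newborn neurons, was at 696 and 331 CPM in temporal and at 649 and 622 CPM in nasal retina.

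Genes of other tissues that a punch could hold were low. RPE65, BEST1 and TYR, which define pigment epithelium and pigment cells, were at 1.77, 2.07 and 1.01 CPM at 90 days and at 0.218, 1.36 and 0 CPM at 150 days, and PMEL was at 7.23 and 1.03 CPM. No read of TYR at 150 days allows a level of up to 0.163 CPM. Of 24 listed genes of that tissue 10 reached 5 CPM, 4 of them higher and 3 lower, and the list summed to 466 CPM at 90 days and 890 CPM at 150 days, of which CRX, which photoreceptors express, gave 131 and 692 CPM. The microglial markers AIF1 and CSF1R were at 1.82 and 1.52 CPM and at 10.2 and 10.6 CPM, and of 19 microglial genes 6 reached 5 CPM, 1 higher and 1 lower. MIP, the lens membrane channel, was at 0.253 and 0 CPM, whereas CRYAA, a lens crystallin that the retina also makes, was at 263 and 193 CPM. Of 14 red blood cell genes 1 reached 5 CPM, the fetal globin row HBG2 at 3.29 and 19.98 CPM, and the list summed to 5.36 and 25.1 CPM in temporal and to 19.2 and 54.3 CPM in nasal retina. HBG2 reads may be shared with its near-identical neighbour. The part of blood and vessel cells in the other differences was not tested.

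**Figure D5:**
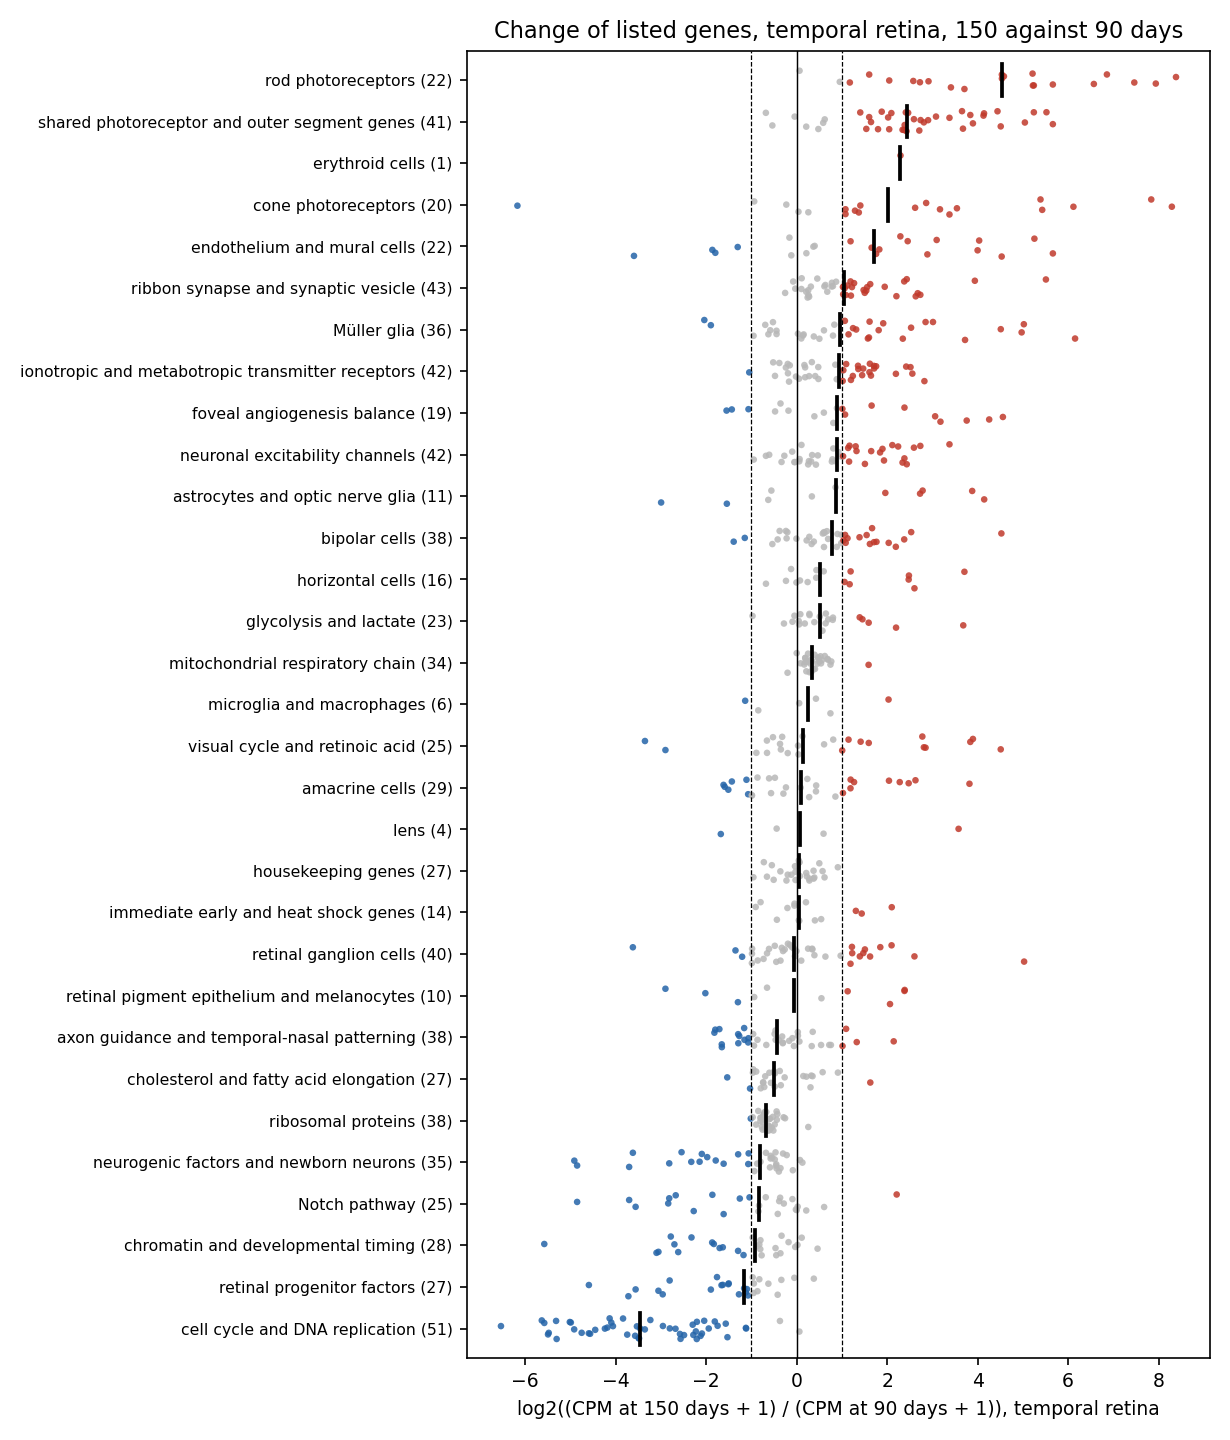
Change from 90 to 150 days in temporal retina of the genes of each list with at least 5 CPM, as log2((CPM at 150 days + 1)/(CPM at 90 days + 1)), 1 point per gene and the number of genes in parentheses. Red points are at least 2-fold higher, blue at least 2-fold lower, and the black bar is the list's median. Lists run from rod photoreceptors, with a median of 4.54, to cell cycle, with a median of -3.46, and the housekeeping list lies at 0.06.

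Other named genes were among the most extreme or the most abundant past 2-fold. CLUL1, a clusterin-like gene of cones, was at 0.101 CPM (2 reads) and 151 CPM (2772 reads). CP, ceruloplasmin, the copper-carrying ferroxidase, was at 1.52 and 159 CPM, 105-fold higher (73.4 to 156), and in nasal retina at 9.83 and 73.6 CPM. LUM, the matrix proteoglycan lumican, was at 0.758 and 66.1 CPM, 87.2-fold higher (52.7 to 156). All 3 had 30 reads or fewer at 90 days. On the lower side, LGR4, a receptor for R-spondins that strengthens Wnt signals, was at 1028 and 319 CPM, 3.22-fold lower (3.13 to 3.32). PTPRF, a receptor phosphatase of growing axons and synapses, and DBN1, the actin-binding protein drebrin, were at 789 and 383 CPM and at 656 and 315 CPM, both near 2-fold. HNRNPA1, an RNA-splicing protein with several rows in the table, was at 617 and 305 CPM in the row with most reads, and its reads may be shared with copies.

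Metabolic genes differed less than the retinal groups. Of 34 respiratory chain genes 1 was higher and 0 lower, with a median log2 ratio of 0.35. The exception was PPARGC1A, a coactivator of mitochondrial biogenesis, at 24.5 and 75.7 CPM, 3.09-fold higher (2.79 to 3.44). COX4I1 and SDHA were at 181 and 239 CPM and at 53.4 and 69.6 CPM. The 13 genes of the mitochondrial genome took 1.91% of the reads at 90 days and 2.67% at 150 days, and 1.86% and 2.55% in nasal retina. Of 23 glycolytic genes 5 were higher and 0 lower. The neuronal isoforms ENO2 and ALDOC were at 764 and 2010 CPM, 2.63-fold higher (2.58 to 2.68), and at 109 and 504 CPM, 4.62-fold higher (4.41 to 4.84), whereas LDHA and LDHB were at 266 and 302 CPM and at 90.7 and 93.7 CPM. ELOVL4, which makes the very long fatty acids of outer segment membranes, was at 149 and 463 CPM, 3.11-fold higher (2.98 to 3.24). HMGCS1, an enzyme of cholesterol synthesis, lay below its earlier level but within 2-fold, at 674 and 416 CPM.

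Housekeeping genes were listed for comparison. Of 27 such genes 0 were higher and 0 lower, with a median log2 ratio of 0.06, and TBP was at 34.4 and 29.3 CPM. Single genes of the list were not all level, with log2 ratios from -0.95 to 0.91. GUSB was at 11.3 and 5.34 CPM and HPRT1 at 63.3 and 120 CPM. Ribosomal protein genes lay lower together within 2-fold: 1 of 38 was lower, and the median log2 ratio was -0.67 in temporal and -0.10 in nasal retina. RPLP0 was at 1017 and 615 CPM in temporal and at 866 and 785 CPM in nasal retina. Reads of ribosomal protein genes may be shared with their many copies. Of 14 immediate early and heat shock genes, which respond to handling of tissue, 3 were higher and 0 lower, among them EGR1 at 2.48 and 13.9 CPM.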

How the data were processed

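The mRNA of 1 temporal and 1 nasal punch at 90 and at 150 days was analysed. According to the paper the authors depleted ribosomal RNA, although the labels name polyA RNA, and aligned with Bowtie2 and Tophat to the Mmul_1 genome with Ensembl genes. The series' design text gives paired-end sequencing at these ages, whereas the paper's methods name single-end reads. The authors also used Cufflinks, and the labels name edgeR. For the step from alignments to gene counts no program is named. The deposited values are CPM per gene, scaled by the authors to an effective library size, not divided by gene length. How much of the retina a punch took varied with age.

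From the CPM steps whole reads were recovered in 100% of values within 0.01 reads (Python 3.11.15, pandas 2.3.3, SciPy 1.17.1). The 4 libraries held 17429349 to 19851990 reads, so that 1 read was 0.047 to 0.0544 CPM, and the 10 most abundant genes took 2.56% to 3.36% of the reads. Log2 ratios used a pseudocount of 1 CPM and genes of at least 5 CPM in either temporal library. Ratios carry 95% Clopper-Pearson intervals, and a library at 0 was set to 3 reads. Of 28633 genes 7120 lacked a symbol, of which 700 were named from a table of gene names. Of the 12341 genes taken, 624 stayed unnamed and 157 rows shared a symbol, for which lists used the row with most reads. Alternatives were other pseudocounts, minimum levels and scalings (DESeq2 1.42.0 size factors), and the counting interval. A further one was an edgeR 4.0.16 quasi-likelihood test of age with region as a term, run first on simulated reads. Those simulated libraries were independent of each other, so the check does not cover libraries that share a fetus.

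Genes were named by rule: the 20 largest log2 ratios in each direction, the 10 most abundant genes past 2-fold in each direction, the core genes of each of 31 lists, and of each list the 3 most extreme genes in each direction and the 3 most abundant. A few genes named by it are left out of the text. The genes, lists and rules were chosen with earlier results of these data known, so the lists are descriptions and not independent support. The 50-day values, which are means per region, and the miRNA table were not used here. Promoter motifs were not analysed here.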

Additional observations from a re-analysis of the deposited data

Results flagged for a closer look

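The nasal and temporal libraries went opposite ways between 90 and 150 days for SEMA3E, RRAD and CD207, and in each case the difference between regions was not tested, since each region had 1 library per age. SEMA3E, a secreted guidance cue that acts on endothelial plexin, had a log2 ratio of 1.094 in temporal retina, from 8.29 to 18.8 CPM, and of -0.49 in nasal retina, from 8.09 to 5.49 CPM. RRAD, a small GTPase-like protein that restrains calcium channels, had -1.374 in temporal retina, from 70.03 to 26.4 CPM, and 1.81 in nasal retina, from 28.97 to 104 CPM. CD207, a lectin of Langerhans cells, had -1.704 in temporal retina, from 10.8 to 2.61 CPM, and 3.20 in nasal retina, from 0.611 to 13.8 CPM. RRAD and CD207 were chosen after their values were seen. They were the 2 genes past 2-fold in opposite directions among those of at least 5 CPM at either age in each region. Other genes also went opposite ways and were not flagged, such as HPN, below 5 CPM in temporal retina, and OTX2, within 2-fold in both regions.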

How the results depend on the processing

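The count of genes at least 2-fold higher, 1198 as reported, was 745 with a minimum of 20 CPM, and 2406 passed edgeR's test of age with region as a term (adjusted p under 0.05). The count of lower genes, 978 as reported, was 2363 in that test, which rests on 1 residual degree of freedom and counts genes below 2-fold. The other pseudocounts, minimum levels, scalings and the counting interval gave 858 to 1570 higher and 666 to 1122 lower genes, within 1.5 times. Higher genes made up 52.8% to 58.3% of those counted under every setting without edgeR and 50.5% with it. List medians moved in 4 of 31 lists with a pseudocount of 5 CPM: rod photoreceptors to 3.43, cell cycle to -2.48, endothelium and mural cells to 0.91 and erythroid cells to 1.59. Of 328 gene rows named by rule, 15 changed their side of 2-fold with a pseudocount of 5 CPM, 5 with median-ratio scaling, 2 with a pseudocount of 0.5 CPM and 0 with scaling to total reads, and no gene past 2-fold changed direction. Near the threshold, VSX1 was at 1.03 with median-ratio scaling, VEGFA at 0.98, SEMA3E at 0.84 and EFNA5 at -0.84 with a pseudocount of 5 CPM. No paired analysis was possible because each age had 1 temporal library, and the labels do not tie libraries to a fetus. Levels of a few reads, such as those of OPN1LW, PDE6G and GFAP at 90 days, set the width of their intervals.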

Other observations

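Genes of dorsal and ventral retina, chosen after their values were seen, differed more between the ages in the nasal than in the temporal libraries. TBX5, a factor of dorsal retina in mice and chicks, was at 16.2 and 7.95 CPM in temporal retina and at 58.7 and 0.0499 CPM, or 1 read, in nasal retina. VAX2, a factor of ventral retina, was at 36.7 and 29.6 CPM in temporal and at 16.1 and 89.3 CPM in nasal retina. ALDH1A1 and ALDH1A3, which make retinoic acid in dorsal and in ventral retina, were at 55.3 and 4.52 CPM and at 9.05 and 5.39 CPM in temporal retina, and at 268 and 7.93 CPM and at 7.15 and 37.0 CPM in nasal retina. The sources used here do not give the height of the punches along the dorsal-ventral axis at either age, and its part in the nasal values set beside the temporal ones was not tested.

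Gene families sharing a symbol stem were tallied after the data were seen, beside 9.71% higher, 7.92% lower and a median log2 ratio of -0.06 over all genes of temporal retina. The 9 inward-rectifier potassium channel genes (KCNJ) had a median of 1.61, with 5 higher and 0 lower. Of 206 solute carriers (SLC) 36 were higher and 11 lower. The 10 genes named MCM had a median of -2.26 with 7 lower, and the 11 splicing factors named SRSF a median of -0.52 with 0 past 2-fold in either direction.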
